A study of Mus musculus with 4 samples.

Results

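The genes of MHC class I antigen presentation were followed in the RNA-Seq of brown preadipocytes with and without *Mll4*, before and during adipogenesis. The set held 10 genes, taken by name for their part in the pathway, out of 22459 gene symbols in the deposited tables. All 10 were found. Each was represented by the RefSeq transcript with the most reads over the 4 libraries. Levels are in RPKM, the reads on exons scaled to exon length and to the sequencing depth of the library. The expressed genes were those that passed an RPKM of 1 in at least 1 of the Ad-GFP libraries, which held for 9 of the 10 class I genes and for 11537 genes in all. The exception was *Nlrc5*.

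Class I molecules show peptides from inside the cell to cytotoxic T cells on the surface of nearly all nucleated cells. The proteasome cuts proteins into peptides, the transporter made of TAP1 and TAP2 carries the peptides into the endoplasmic reticulum, and tapasin holds the empty class I molecule at the transporter until a peptide fits. The molecule itself is a polymorphic heavy chain paired with the invariant light chain β2-microglobulin. Interferons and NLRC5 are known to switch many of these genes on together.

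The cells were brown preadipocytes of E18.5 mouse embryos on the C57BL/6J background, immortalized with SV40T. They carried floxed *Mll4* alleles and all of them lacked MLL3, so the control that the labels call WT was MLL3-/- as well. Cells infected with adenoviral GFP (Ad-GFP) kept *Mll4*, and cells infected with adenoviral Cre (Ad-Cre) had the genotype MLL3-/-;MLL4-/-. RNA was taken at day 0 (D0), when the confluent cells received the cocktail of insulin, T3, indomethacin, dexamethasone and IBMX, and again at day 2 (D2). Whether the line is 1 clone is not given in the sources used here. Libraries are listed below in the order Ad-GFP D0, Ad-GFP D2, Ad-Cre D0, Ad-Cre D2. Each of the 4 conditions had 1 library, so no difference below has a replicate check, and every interval is a 95% interval that covers counting error of the reads only. Values compare these libraries, not the conditions in general. As RNA came from whole cultures, fewer cells of a type and less RNA per cell cannot be told apart.

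The deposited counts summed to between 15831915 and 22099995 reads per library. Counts over the whole *Kmt2d* transcript (the gene symbol of *Mll4*) lay between 5595 and 8530 reads, and such counts cannot show the loss of the few floxed exons. Adipocyte markers rose over 2.5-fold by day 2 in both cell populations (7 of 7 expressed markers in each). Of all expressed genes, 8.37% rose by as much with Ad-GFP and 8.68% with Ad-Cre. All 7 markers were over 2.5-fold lower in Ad-Cre D2 than in Ad-GFP D2, beside 10.1% of expressed genes. Among the 7, *Adipoq*, *Cidec* and *Plin1* counted as expressed only through Ad-GFP D2, the library in which they were highest. Their place in these counts thus depends on that library. The listed marker *Ucp1* had at most 1 read per library and was not expressed. Of the preadipocyte and mesenchymal markers, 5 of 10 were over 2.5-fold lower in Ad-Cre D0 than in Ad-GFP D0, beside 4.12% of expressed genes. Among the 5 were *Cd34* with 18 against 500 reads and *Pdgfra* with 1246 against 8315 reads. By any amount, 8 of the 10 were lower and 2 were higher. Immune cell markers summed to between 3 and 22 reads over 11 genes per library, with *Ptprc* (CD45) at 0 reads in all 4, and endothelial markers to between 7 and 21 reads over 6 genes. No gene of either list passed 1 RPKM in any library.

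The Ad-Cre library of day 2 stood apart in how its ratios followed transcript length and base composition. Across 10859 expressed genes, the log2 ratio of Ad-Cre D2 to Ad-GFP D2 had a Spearman correlation of -0.38 with exon length and 0.42 with GC content. From the shortest to the longest of 4 equal groups of genes its median went from 0.35 through -0.07 and -0.35 to -0.65. The ratio of day 2 to day 0 had a correlation of -0.41 with length in Ad-Cre cells and of 0.00 in Ad-GFP cells. The class I genes are mostly short and rich in GC: *Psmb9* and *B2m* lay at the 4.04th and 4.65th percentile of exon length, no expressed member lay above the 52.8th, and all but *B2m* lay at or above the 74.8th percentile of GC. Ratios of the class I genes between libraries that involve Ad-Cre D2 are therefore given both as deposited and after division by the trend over length and GC, and levels and shares within a library are as deposited. The part of this trend in the class I ratios was not tested beyond that division.

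Summed over the 10 genes, the class I transcripts amounted to 274 RPKM in Ad-GFP D0, 122 in Ad-GFP D2, 348 in Ad-Cre D0 and 264 in Ad-Cre D2, so that Ad-GFP D2 was the lowest library. Positions below are spans over all isoforms of a gene in GENCODE, beside the RefSeq transcript that was counted. The classical heavy chains *H2-K1* (NM_001001892, chr17:34132962-34137278 on the minus strand of NCBI37/mm9) and *H2-D1* (NM_010380, chr17:35399675-35404444, plus strand) present peptides to CD8 T cells. *H2-K1* had 484 reads in Ad-GFP D0, 666 in Ad-GFP D2, 929 in Ad-Cre D0 and 1110 in Ad-Cre D2. In RPKM these were 17.1 (15.6 to 18.7), 17.6 (16.3 to 19.0), 28.9 (27.1 to 30.8) and 37.4 (35.2 to 39.7). *H2-D1* had 634, 801, 1118 and 1422 reads in the same order, which gave 21.2 (19.6 to 22.95), 20.1 (18.7 to 21.5), 33.0 (31.1 to 35.0) and 45.4 (43.1 to 47.9) RPKM. For both heavy chains the Ad-GFP libraries were low and close together, the Ad-Cre libraries were higher at both days, and the intervals of Ad-GFP and Ad-Cre did not overlap. *H2-K1* stood at between 80.5% and 87.7% of *H2-D1* in RPKM, with overlapping intervals in all 4 libraries. Part of each count may belong to a relative: of 50-base windows along the transcript, 31.1% of *H2-K1* and 27.7% of *H2-D1* matched within other genes with an H2 symbol, with up to 2 mismatches. *H2-Q4* was the most frequent (19.2% and 14.8% of windows). Windows of *H2-K1* matched next most often within *H2-D1* (18.3%), and those of *H2-D1* within *H2-Q7* (14.6%) and then *H2-K1* (13.6%). With matches anywhere in the genome, repeats included, the shares were 31.4% and 38.4%. How reads with several matches were treated is not given in the sources used here.

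The promoters of *H2-K1* and *H2-D1* are shown because both genes had the same profile over the libraries. RefSeq promoter windows of 300 bases (250 before and 50 after the start site, GRCm38.p6) were matched for 8 of the 10 genes, those except *Tap2* and *Nlrc5*. *H2-K1* has 2 windows, of which 1 is printed. Each window printed here had 1 exact match in mm9, whose position is given. The windows belong to the start sites of that table, and those of *H2-D1*, *Psmb9*, *Psmb8* and *Tapbp* start 364, 434, 474 and 3579 bases inside the span of all isoforms given here. Which start sites the reads came from was not measured. Capitals mark matches to 4 motifs searched on both strands: GAAANNGAA (the core of the interferon-stimulated response element), the consensus of NF-κB, CCAAT (bound by NF-Y) and TGACG (the core of the cAMP response element). These are found in 8.56%, 8.46%, 37.4% and 20.8% of all 32851 promoters of the table. The windows of *H2-K1* (chr17:34137243-34137542, minus strand) and *H2-D1* (chr17:35399789-35400088, plus strand) read as follows.
H2-K1: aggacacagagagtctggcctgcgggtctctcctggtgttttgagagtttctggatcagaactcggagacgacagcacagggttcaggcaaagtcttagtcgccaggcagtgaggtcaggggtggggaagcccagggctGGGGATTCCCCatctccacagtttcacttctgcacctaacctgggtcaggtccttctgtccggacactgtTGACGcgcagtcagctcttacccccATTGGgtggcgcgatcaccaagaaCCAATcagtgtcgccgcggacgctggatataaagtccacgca
H2-D1: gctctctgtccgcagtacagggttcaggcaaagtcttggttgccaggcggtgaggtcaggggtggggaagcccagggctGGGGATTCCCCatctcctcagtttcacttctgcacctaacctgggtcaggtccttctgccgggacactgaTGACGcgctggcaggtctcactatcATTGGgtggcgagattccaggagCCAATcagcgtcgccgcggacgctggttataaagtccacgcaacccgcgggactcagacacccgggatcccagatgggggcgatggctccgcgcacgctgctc
They were 88.3% identical over 239 aligned bases, and both held NF-κB matches on both strands in a pair of overlapping frames, followed by TGACG and then by CCAAT once on each strand. A match of letters is a description of the sequence and not a measured site.

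*B2m* (NM_009735, chr2:121973422-121978819, plus strand), which codes for the light chain of every class I molecule, was the most abundant class I gene in each library. It had 2080, 955, 3184 and 1582 reads in the order of the libraries, or 141 (135 to 147), 48.4 (45.4 to 51.6), 190.2 (184 to 197) and 102 (97.3 to 107) RPKM. The Ad-GFP D2 library was the lowest and the Ad-Cre D0 library the highest. *B2m* lay at the 98.3rd, 91.1st, 99.0th and 96.5th percentile of expressed genes in the same order. Unlike the heavy chains, *B2m* was lower at day 2 than at day 0 in both populations. The ratio of *H2-K1* to *B2m* in RPKM was 12.1% (10.96 to 13.4) in Ad-GFP D0 and 15.2% (14.1 to 16.4) in Ad-Cre D0, and it was 36.4% (32.9 to 40.2) in Ad-GFP D2 and 36.6% (33.8 to 39.5) in Ad-Cre D2. *H2-D1* over *B2m* gave 15.1% and 17.4% at day 0 and 41.5% and 44.4% at day 2. As deposited, the ratio of heavy to light chain transcripts thus differed between days in both populations, while its intervals in the D2 libraries overlapped. With the trend over length and GC divided out, *H2-K1* over *B2m* was 1.52-fold lower in Ad-Cre D2 than in Ad-GFP D2 and *H2-D1* over *B2m* 1.33-fold lower. The window of *B2m* (chr2:121973173-121973472, plus strand) is shown as the 1 class I window with a match to the letters GAAANNGAA. This match spans bases -139 to -131 from the start site, and an NF-κB match on the other strand follows at bases -126 to -117. Other forms of the interferon-stimulated response element were not searched, so windows without this match may still hold one.
B2m: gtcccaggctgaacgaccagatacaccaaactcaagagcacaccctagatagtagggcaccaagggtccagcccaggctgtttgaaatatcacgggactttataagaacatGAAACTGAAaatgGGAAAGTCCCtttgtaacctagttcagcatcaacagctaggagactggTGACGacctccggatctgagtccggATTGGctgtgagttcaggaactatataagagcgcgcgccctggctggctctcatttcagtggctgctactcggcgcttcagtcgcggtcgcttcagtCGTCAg

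*Tap1* (NM_013683, chr17:34324498-34334170, plus strand) and *Tap2* (NM_011530, chr17:34340472-34353266, plus strand) code for both chains of the peptide transporter. *Tap1* had 562, 406, 814 and 663 reads, or 11.1 (10.18 to 12.03), 5.99 (5.42 to 6.60), 14.1 (13.2 to 15.1) and 12.5 (11.53 to 13.4) RPKM. *Tap2* had 710, 444, 678 and 695 reads, or 16.6 (15.4 to 17.8), 7.76 (7.05 to 8.51), 14.0 (12.9 to 15.0) and 15.5 (14.3 to 16.7) RPKM. Both were lowest in Ad-GFP D2, and the intervals there overlapped with no other library. The other 3 libraries lay between 11.1 and 14.1 RPKM for *Tap1* and between 14.0 and 16.6 RPKM for *Tap2*. In RPKM, *Tap1* stood at 66.8% (59.7 to 74.7) of *Tap2* in Ad-GFP D0 and at 101% (91.4 to 112) in Ad-Cre D0, and at 77.2% (67.3 to 88.5) and 80.5% (72.3 to 89.7) in the D2 libraries. The intervals of this ratio did not overlap at day 0 and overlapped at day 2, where the log2 difference of Ad-Cre from Ad-GFP was 0.06 as deposited and 0.12 after division by the trend.

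*Tapbp* (NM_001025313, chr17:34052844-34066235, plus strand) codes for tapasin, which bridges the transporter and the class I molecule. It had 2336, 1058, 2667 and 1577 reads, or 49.4 (47.4 to 51.4), 16.7 (15.7 to 17.8), 49.7 (47.8 to 51.6) and 31.8 (30.3 to 33.4) RPKM. Both day 0 libraries were alike within counting error, and both day 2 libraries were lower, that of Ad-GFP cells the most. *Tapbp* was 4.46 times as abundant as *Tap1* in RPKM in Ad-GFP D0, and 2.80, 3.51 and 2.55 times in the other 3 libraries.

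**Figure D1:**
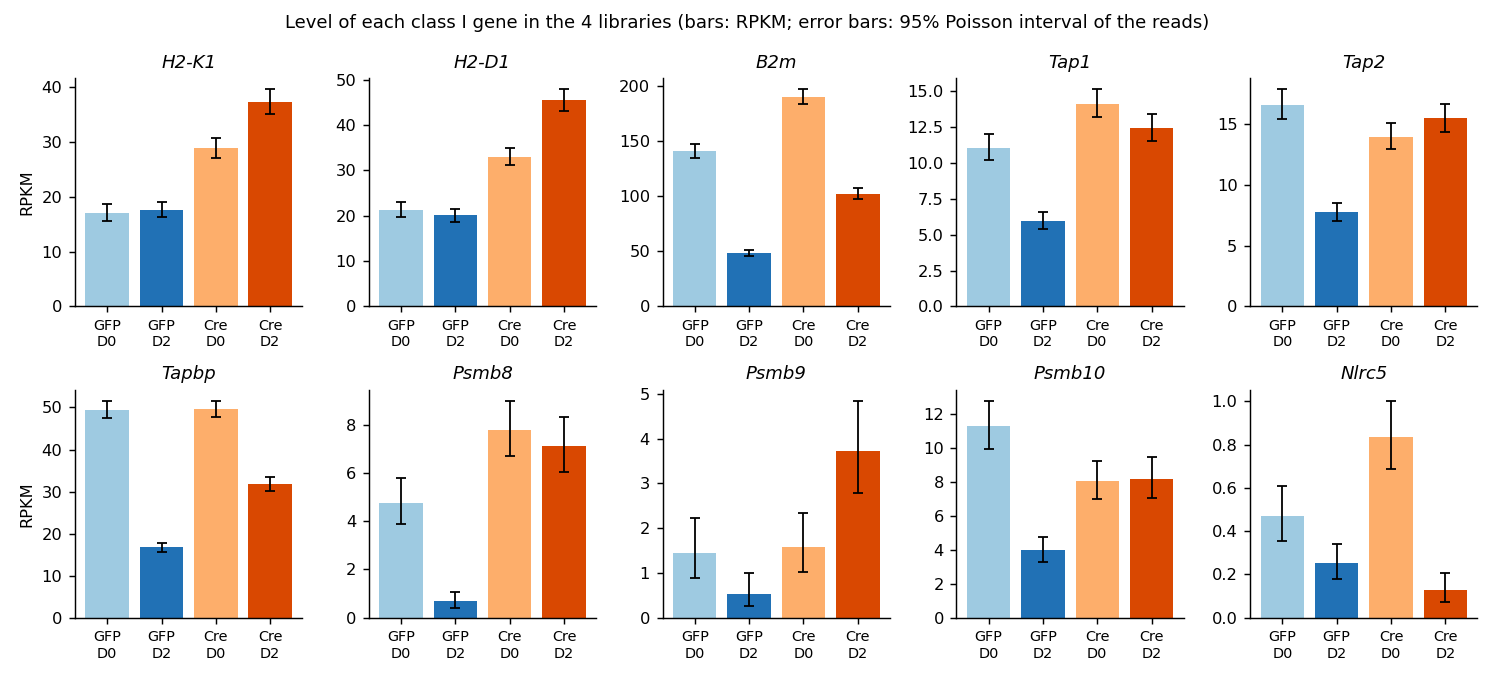
RPKM (vertical axes, each from 0 and on its own scale) of the 10 class I genes in the 4 libraries (GFP for Ad-GFP and Cre for Ad-Cre), 1 library per bar, with 95% Poisson intervals of the reads as error bars. Ad-GFP D2 is the lowest bar for *B2m*, *Tap1*, *Tap2*, *Tapbp*, *Psmb8*, *Psmb9* and *Psmb10*, while *H2-K1* and *H2-D1* are low in both Ad-GFP libraries and *Nlrc5* is lowest in Ad-Cre D2.

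*Psmb8*, *Psmb9* and *Psmb10* code for the catalytic subunits of the immunoproteasome, which replace the constitutive subunits of *Psmb5*, *Psmb6* and *Psmb7* and favour peptides that fit class I molecules. *Psmb8* (NM_010724, chr17:34334666-34338399, plus strand) had 100 reads in Ad-GFP D0, 19 in Ad-GFP D2, 186 in Ad-Cre D0 and 157 in Ad-Cre D2, or 4.75 (3.87 to 5.78), 0.676 (0.407 to 1.06), 7.79 (6.71 to 8.999) and 7.12 (6.05 to 8.32) RPKM. *Psmb9* (NM_013585, chr17:34318932-34324709, minus strand) was the scarcest expressed member, with 20, 10, 25 and 54 reads, or 1.44 (0.881 to 2.23), 0.540 (0.259 to 0.993), 1.59 (1.03 to 2.35) and 3.72 (2.79 to 4.85) RPKM. *Psmb10* (NM_013640, chr8:108459628-108462292, minus strand) had 246, 116, 199 and 187 reads, or 11.3 (9.90 to 12.8), 3.97 (3.28 to 4.77), 8.03 (6.95 to 9.23) and 8.17 (7.04 to 9.42) RPKM. All 3 were lowest in Ad-GFP D2, where *Psmb8* and *Psmb9* were below 1 RPKM, and *Psmb9* was highest in Ad-Cre D2. Over all their GENCODE isoforms, *Psmb9* and *Tap1* overlap head to head by 212 exonic bases on opposite strands, so reads there cannot be told apart if the counting ignored strand, and the labels name a library kit for DNA. *Tap2* and *Psmb8* likewise overlap predicted genes of the other strand by up to 533 and 187 exonic bases.

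The constitutive counterparts varied less: over the 4 libraries *Psmb5* lay between 54.5 and 65.7 RPKM, *Psmb6* between 54.4 and 77.0 and *Psmb7* between 55.5 and 83.0. The level of *Psmb8* as a share of *Psmb5* in RPKM was 8.06% (6.48 to 9.92) in Ad-GFP D0, 1.195% (0.717 to 1.88) in Ad-GFP D2, 14.3% (12.2 to 16.8) in Ad-Cre D0 and 10.8% (9.10 to 12.8) in Ad-Cre D2. *Psmb9* over *Psmb6* was 2.12%, 0.880%, 2.92% and 4.83% in the same order, and *Psmb10* over *Psmb7* was 18.4%, 5.45%, 14.5% and 9.84%. In all 3 pairs the immunoproteasome share was lowest in Ad-GFP D2, and for *Psmb8* and *Psmb10* its interval there overlapped with no other library. With the trend divided out, the share in Ad-Cre D2 was 10.6-fold that in Ad-GFP D2 for *Psmb8*, 5.30-fold for *Psmb9* and 1.30-fold for *Psmb10*. The interval of *Psmb9* over *Psmb6* in Ad-GFP D2 (0.421 to 1.62) overlapped with that in Ad-GFP D0 (1.29 to 3.29).

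**Figure D2:**
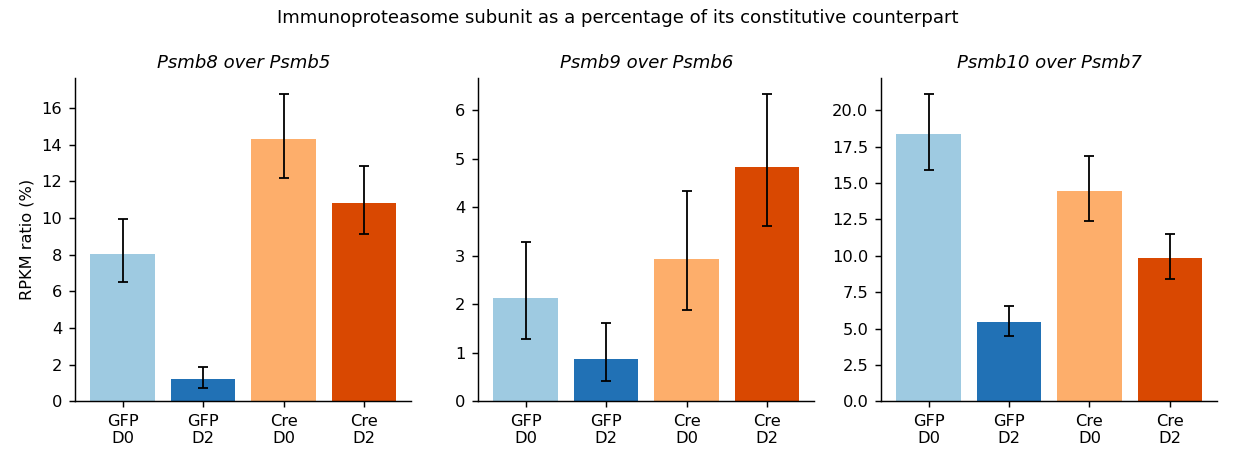
RPKM of each immunoproteasome subunit as a percentage of the RPKM of its constitutive counterpart (vertical axes from 0), 1 library per bar, with 95% binomial intervals of the read ratio as error bars. The Ad-GFP D2 bars are the lowest of each panel at 1.195%, 0.880% and 5.45%.

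*Psmb9*, *Tap1*, *Psmb8* and *Tap2* lie side by side in the class II region of chromosome 17. *Psmb9* and *Tap1* are transcribed away from each other from RefSeq start sites 226 bases apart in GRCm38.p6, within the longest isoforms of *Psmb9*, and their promoter windows share 275 bases. The window of *Psmb9* (mm9 chr17:34324226-34324525, minus strand) is shown for both.
Psmb9: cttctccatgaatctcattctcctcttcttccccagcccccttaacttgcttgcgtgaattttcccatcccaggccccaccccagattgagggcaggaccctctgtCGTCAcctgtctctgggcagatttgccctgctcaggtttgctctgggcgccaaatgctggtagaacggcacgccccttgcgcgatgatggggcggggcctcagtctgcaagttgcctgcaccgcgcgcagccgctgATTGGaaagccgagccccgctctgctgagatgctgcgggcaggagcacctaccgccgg
As printed, the shared window holds CGTCA and ATTGG, the reverse complements of TGACG and CCAAT. The windows of *Psmb8* and *Psmb10* held none of the 4 motifs. The start site of the *Psmb8* window lies 405 bases from the nearest GENCODE transcript start, against at most 14 bases for the other windows. Whether it covers the promoter in use was not measured. The windows of *H2-K1*, *H2-D1*, *B2m*, *Psmb9*, *Tap1* and *Tapbp* held CCAAT, and all of these except *Tapbp* held TGACG.

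*Nlrc5* (NM_001033207, chr8:96996663-97051172, plus strand) codes for the transactivator that is recruited to class I promoters. It had 56, 40, 113 and 16 reads in the order of the libraries, or 0.469 (0.354 to 0.609), 0.251 (0.179 to 0.341), 0.834 (0.687 to 1.00) and 0.128 (0.0730 to 0.207) RPKM. It never passed 1 RPKM, and 3 reads corresponded to between 0.0188 and 0.0251 RPKM of it. Its lowest library was Ad-Cre D2, in which the 9 expressed members were all above their Ad-GFP D2 level. Its transcript is long, at the 93.5th percentile of exon length, and had no GC value here, so no value divided by the trend is given for it.

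In Ad-GFP cells, which undergo adipogenesis, most class I genes were lower at day 2 than at day 0 while the heavy chains stayed near their day 0 level. Of the 9 expressed members, 5 fell over 2.5-fold and none rose, beside 12.7% of all expressed genes that fell and 8.37% that rose by as much. Among the 5, *Psmb8* (4.75 and 0.676 RPKM) and *Psmb9* (1.44 and 0.540 RPKM) counted as expressed only through Ad-GFP D0. Their place in this count thus depends on the library in which they were higher. *Psmb8* fell 7.03-fold (log2 ratio -2.81, interval -3.61 to -2.10), *Tapbp* 2.95-fold (-1.56, -1.67 to -1.46), *B2m* 2.91-fold (-1.54, -1.65 to -1.43), *Psmb10* 2.83-fold (-1.50, -1.83 to -1.18) and *Psmb9* 2.67-fold (-1.42, -2.68 to -0.26). These included subunits of the immunoproteasome, the light chain and the loading chaperone. The log2 ratio was -1.096 for *Tap2*, -0.89 for *Tap1*, -0.08 (-0.23 to 0.07) for *H2-D1* and 0.04 (-0.13 to 0.21) for *H2-K1*. The median of the 9 was -1.42, beside 0.15 over all expressed genes. With the interval itself required to pass 2.5-fold, 3 remained past the cutoff, *B2m*, *Tapbp* and *Psmb8*. After division by the trend the median was -1.46 and 5 of 9 were past the cutoff, beside 13.1% of expressed genes.

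In Ad-Cre cells the same 2 days gave no class I gene past 2.5-fold among the 9 expressed members, beside 8.68% of all expressed genes that rose and 10% that fell. The log2 ratios of day 2 to day 0 ran from -0.90 (-0.98 to -0.81) for *B2m* and -0.64 for *Tapbp* to 0.46 (0.35 to 0.58) for *H2-D1* and 1.22 (0.52 to 1.97) for *Psmb9*. At 2-fold, *Psmb9* passed on the higher side, beside 14.6% of expressed genes. The median of the 9 was 0.02, beside -0.01 over all expressed genes. After division by the trend over length and GC the median was -0.31, beside 0.00 over all expressed genes. *B2m* then passed the cutoff downwards at -1.34, beside 8.77% of expressed genes. Above 0 were 2 of 9 members, *Psmb9* at 0.26 and *H2-D1* at 0.01. *Nlrc5*, outside the expressed genes, had a log2 ratio of -2.71 (-3.56 to -1.94).

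The change from day 0 to day 2 was also set between the populations, as the log2 ratio in Ad-Cre cells minus that in Ad-GFP cells. It was above 0 for all 9 expressed members, beside 45.9% of 11434 expressed genes, with a median of 0.92 beside -0.11. *Psmb8* and *Psmb9* counted as expressed only through Ad-GFP D0, a library that enters this difference. The difference was 2.68 (1.91 to 3.45) for *Psmb8*, 2.64 (1.35 to 3.93) for *Psmb9*, 1.53 (1.098 to 1.956) for *Psmb10* and 1.25 (1.02 to 1.47) for *Tap2*. It was 0.92 for *Tapbp*, 0.71 for *Tap1*, 0.65 for *B2m*, 0.54 for *H2-D1* and 0.33 (0.12 to 0.54) for *H2-K1*. For *Nlrc5* it was -1.80 (-2.76 to -0.85). After division by the trend the median was 0.60, beside 0.02 over all expressed genes. Of the 9, 8 were then above 0, with *H2-K1* the exception at -0.30. The division sets the median of all expressed genes near 0, and their share above 0 was not counted.

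Before adipogenesis, at day 0, no expressed member passed 2.5-fold between Ad-Cre D0 and Ad-GFP D0, beside 1.27% of expressed genes higher and 4.12% lower by as much in Ad-Cre D0. The log2 ratios were 0.76 (0.60 to 0.92) for *H2-K1*, 0.71 (0.35 to 1.08) for *Psmb8*, 0.64 (0.49 to 0.78) for *H2-D1*, 0.43 (0.35 to 0.51) for *B2m* and 0.35 (0.20 to 0.51) for *Tap1*. *Psmb9* at 0.14 (-0.77 to 1.06) and *Tapbp* at 0.01 (-0.07 to 0.09) could not be told from no difference at this depth. *Tap2* at -0.25 (-0.40 to -0.09) and *Psmb10* at -0.49 (-0.76 to -0.21) were on the lower side. The median was 0.35, beside -0.02 over all expressed genes, and 4.21% of expressed genes had a higher ratio than *H2-K1*. Between the same libraries, 5 of the 10 preadipocyte and mesenchymal markers were over 2.5-fold lower in Ad-Cre D0, beside 4.12% of expressed genes. The list was not uniform, as 2 markers were on the higher side and *Col1a1* was at -0.30. The part of these markers in the class I ratios was not tested.

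At day 2 all 9 expressed members were higher without *Mll4*, in Ad-Cre D2 over Ad-GFP D2, beside 42.9% of all expressed genes. Past 2.5-fold were 2 of them, beside 8.16% of expressed genes that were higher by as much, and past 2-fold 7, beside 12.7%. *Psmb8* was 10.5-fold higher (log2 ratio 3.40, 2.71 to 4.17), on 157 against 19 reads, and 0.506% of expressed genes had a higher ratio. *Psmb9* was 6.88-fold higher (2.78, 1.80 to 3.92), on 54 against 10 reads. The other 7 lay close together, from 0.93 (0.81 to 1.04) for *Tapbp* through 1.00 for *Tap2*, 1.04 for *Psmb10*, 1.06 for *Tap1*, 1.08 for *B2m* and 1.09 for *H2-K1* to 1.18 (1.05 to 1.31) for *H2-D1*. The median was 1.08, beside -0.16 over all expressed genes. *Nlrc5* had a log2 ratio of -0.97 (-1.91 to -0.10), on 16 against 40 reads. The adipocyte markers differed between the same libraries, as given above, and their part in the class I ratios was not tested.

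**Figure D3:**
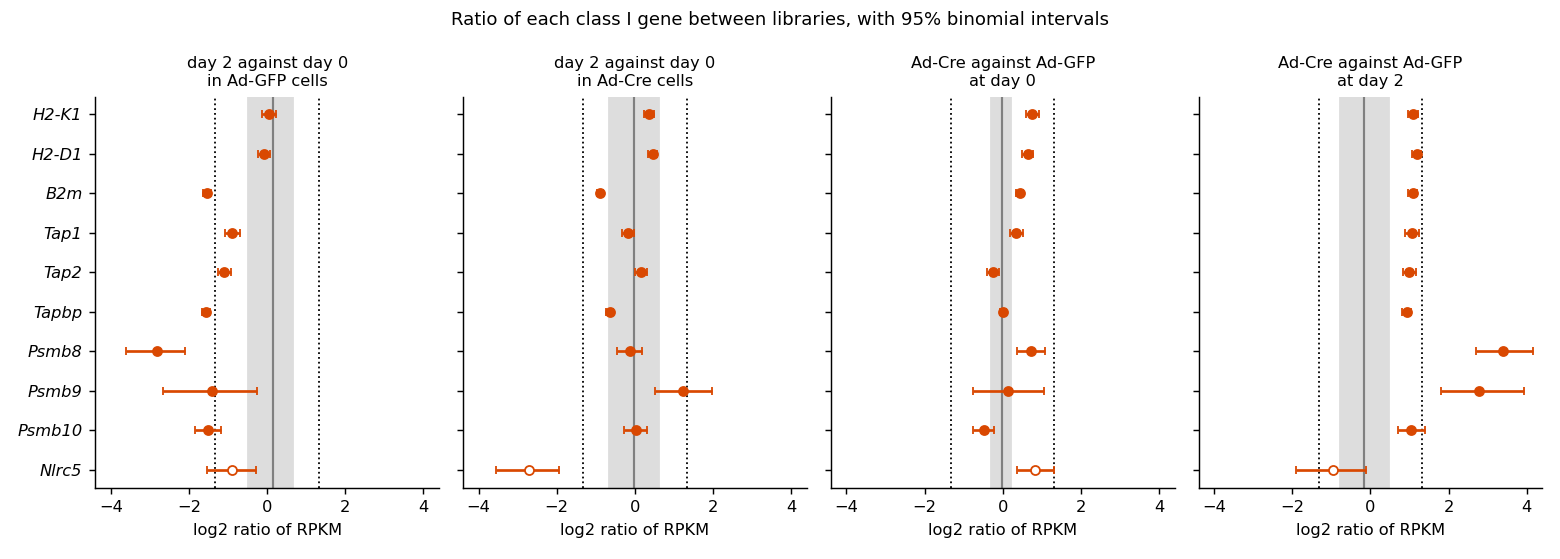
Log2 ratio of RPKM (horizontal axes) of each class I gene in the 4 comparisons, with 95% binomial intervals of the read ratio. Open circles mark *Nlrc5*, which was not expressed, the grey line and band are the median and the range between the quartiles of all expressed genes, and dotted lines stand at 2.5-fold, which *Psmb8* and *Psmb9* pass on the higher side in the last panel.

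Division by the trend over length and GC lowered 8 of these 9 ratios and turned none. For Ad-Cre D2 over Ad-GFP D2 it took *Psmb8* to 2.85, *Psmb9* to 2.13, *B2m* to 1.13, *Tap1* to 0.85, *Tap2* to 0.72, *H2-D1* to 0.72, *Tapbp* to 0.66, *H2-K1* to 0.53 and *Psmb10* to 0.41. All 9 stayed above 0 with a median of 0.72, beside a median of 0.00 over all expressed genes. *Psmb8* and *Psmb9* stayed past the cutoff, beside 7.04% of expressed genes. *B2m*, short but poor in GC, was the member whose ratio did not become smaller. The same values were taken for the other genes between *H2-K1* and *H2-D1* on chromosome 17, without any antigen presentation gene. Of these, 33 of 40 expressed ones were higher in Ad-Cre D2 than in Ad-GFP D2, beside 42.9% of all expressed genes. Their median log2 ratio was 0.41. After the division 21 of 39 were higher, with a median of 0.01. The share of all expressed genes above 0 was not counted after the division.

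**Figure D4:**
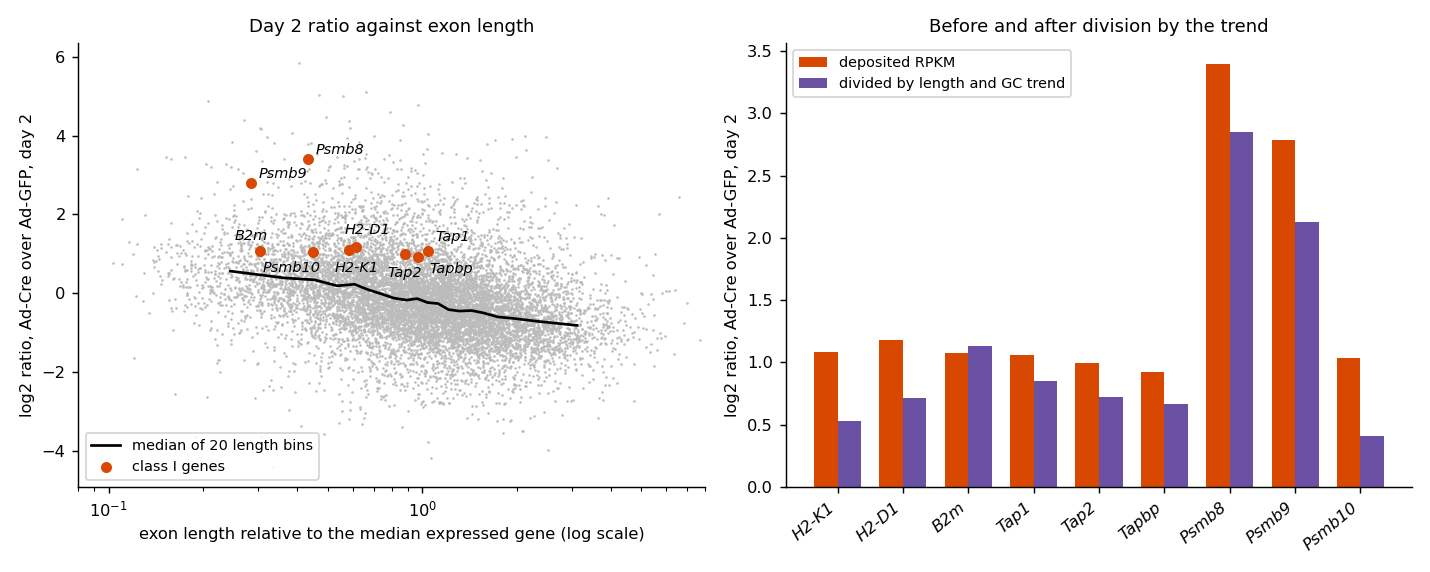
Left, log2 ratio of Ad-Cre D2 to Ad-GFP D2 (vertical axis) against exon length relative to the median expressed gene (log scale), with 1 grey point per expressed gene, class I genes in orange and the median of 20 length bins as a black line that runs downwards. Right, the same log2 ratio of the 9 expressed members from the deposited RPKM (orange) and after division by the trend over length and GC (purple), with all bars above 0 in both.

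The rest of the pathway was read from gene lists. Of 14 expressed genes for peptide supply and loading, 2 fell and 2 rose over 2.5-fold in Ad-GFP cells by day 2, beside 12.7% and 8.37% of all expressed genes. In Ad-Cre D2 against Ad-GFP D2, 1 was higher and 2 were lower, beside 8.16% and 10.1%. *Psme1*, a subunit of the PA28 proteasome activator that interferon induces, had 16.8, 4.63, 12.6 and 13.0 RPKM in the order of the libraries. It fell 3.62-fold in Ad-GFP cells and was 2.81-fold higher in Ad-Cre D2 than in Ad-GFP D2, or 1.90-fold after division by the trend. *Psme3*, the activator subunit of nuclear proteasomes, went the other way with 24.9, 76.4, 30.4 and 26.7 RPKM. *Lnpep*, an aminopeptidase of endosomes, had 6.86, 19.2, 7.10 and 4.23 RPKM. *Tapbpl*, the tapasin-related peptide editor, fell in both populations, 5.76-fold in Ad-GFP and 5.82-fold in Ad-Cre cells, on 48 and 34 reads at day 2, and 6.63-fold in Ad-Cre cells after division by the trend. *Erap1*, which trims peptides in the endoplasmic reticulum, fell 3.88-fold in Ad-Cre cells by day 2, or 2.68-fold after the division. Once the trend was divided out, 0 of the 14 passed 2.5-fold in either direction in Ad-Cre D2 against Ad-GFP D2, beside 7.04% of expressed genes that were higher and 5.5% that were lower.

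The 14 subunits of the constitutive 20S proteasome, which every cell uses, and its maturation factor *Pomp* were all expressed. *Psma1* rose 3.32-fold in Ad-GFP cells by day 2, as 1 of the 15 beside 8.37% of all expressed genes that rose over 2.5-fold. No other gene of these 15 was past 2.5-fold in any of the 4 comparisons as deposited. Their median log2 ratio of Ad-Cre D2 to Ad-GFP D2 was 0.20 as deposited and -0.01 after division by the trend, beside 1.08 and 0.72 for the class I members. The 10 expressed of 28 other class I and class I-like chains had a median of -1.27 from day 0 to day 2 in Ad-GFP cells. Past 2.5-fold downwards were 4 of them, beside 12.7% of all expressed genes. Among the 4, *H2-Q4*, *H2-T23* and *Hfe* counted as expressed only through Ad-GFP D0, the library in which they were higher. They are named for this limit and had 18, 29 and 6 reads in Ad-GFP D2. In Ad-Cre D2, 1 of 10 was over 2.5-fold higher than in Ad-GFP D2, beside 8.16%, or 2 of 10 after division by the trend, beside 7.04%. Also named among the 10 were *Fcgrt*, the neonatal Fc receptor, at 37.8, 53.4, 14.7 and 35.5 RPKM, and *Mr1*, which presents vitamin metabolites, at 6.58, 2.74, 6.05 and 2.08 RPKM. Both pair with β2-microglobulin, and neither was highest in Ad-Cre D2.

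Among 15 expressed class I transcription factors, 2 fell over 2.5-fold in Ad-GFP cells by day 2, a share near the 12.7% of all expressed genes, and none passed the cutoff in the other 3 comparisons as deposited. Both belong to the complex that carries the signal of type I interferon to DNA. *Irf9* had 17.98, 4.80, 21.5 and 8.69 RPKM, and *Stat2* had 17.3, 6.38, 25.7 and 15.3 RPKM. With the trend divided out, *Irf9* passed the cutoff downwards in Ad-Cre cells by day 2 as well, 2.66-fold, as 1 of the 15 beside 8.77% of expressed genes. *Stat2* then passed it upwards in Ad-Cre D2 against Ad-GFP D2, 3.08-fold, as 1 of the 15 beside 7.04%. Of 9 expressed genes of interferon receptor signalling, *Socs1*, a feedback inhibitor that interferon induces, had 11.2, 2.39, 8.03 and 6.19 RPKM and was 2.59-fold higher in Ad-Cre D2 than in Ad-GFP D2, or 1.30-fold after the division. *Ifngr1*, a chain of the interferon gamma receptor, rose 5.63-fold in Ad-GFP cells, to 3366 reads, and was 3.01-fold lower in Ad-Cre D2 than in Ad-GFP D2, or 2.65-fold after the division. *Socs3*, an inhibitor of cytokine signalling, was 3.55-fold lower in Ad-Cre D0 than in Ad-GFP D0. Of the 9, once the trend was divided out, 0 were past 2.5-fold on the higher side and 1 on the lower side in Ad-Cre D2 against Ad-GFP D2, beside 7.04% and 5.5% of expressed genes. *Ifnb1* and *Ifng*, which code for interferons, had 0 reads in every library, against which a limit of 3 reads applies.

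MHC class II genes, which professional antigen presenting cells use, were mostly absent: 2 of 11 were expressed, and both were over 2.5-fold higher in Ad-Cre D2 than in Ad-GFP D2, beside 8.16% of expressed genes. *H2-DMa*, a chain of the class II peptide exchange factor, had 6.92, 4.51, 7.35 and 13.8 RPKM. The other was *H2-DMb1*, with 32, 12, 56 and 54 reads, which is named because it completes the count. After division by the trend 1 of the 2 stayed past the cutoff, beside 7.04% of expressed genes. It was *H2-DMb1*, on 12 reads in Ad-GFP D2, while *H2-DMa* was then 1.91-fold higher. The genes with the profile nearest to the mean profile of the 9 expressed members, by Euclidean distance of centred log2 RPKM over the 4 libraries among 8616 genes with at least 100 reads in each, were *Trip6* (distance 0.10), *Lpcat4* (0.10), *Shkbp1* (0.12), *P4ha2* (0.13) and *Chpf* (0.16). *Trip6* had 49.6, 22.4, 65.1 and 64.8 RPKM. Among the members, *Tap1* lay nearest to their mean profile at 0.33 and *Psmb8* farthest at 1.64.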

How the data were processed

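RNA-Seq of 4 libraries was analysed, and libraries were grouped from the sample labels. The authors aligned 50-base reads to NCBI37/mm9 with the Illumina Analysis Pipeline and deposited the whole-number read count of each RefSeq transcript on exons. The deposited RPKM of each transcript was used as given. Upstream processing is otherwise not given in the sources used here, and the submitters' processing notes list bedtools 2.16 and SICER 1.1. Per symbol, the transcript with most reads over the libraries was kept. Ratios were taken of RPKM with no pseudocount, and a gene was called past 2.5-fold, the cutoff of the study's methods. Intervals were exact Poisson (levels) and Clopper-Pearson (ratios) at 95%. Those of the difference between the changes in Ad-Cre and Ad-GFP cells were a normal approximation from the 4 read counts. No test was made, as each condition had 1 library. The trend over exon length and GC was taken as running medians in 20 bins over 5 rounds. Gene positions came from GENCODE on mm9 and promoters from RefSeq. Python 3.11.15, scipy 1.17.1, edgeR 4.0.16 and blastn 2.17.0 were used, and scripts were tested on simulated data. The members and lists were chosen with earlier results of these data known. Named were all members and, per list, up to 5 expressed genes past 2.5-fold with at least 100 reads. Alternatives were another denominator, TMM factors of edgeR, a pseudocount of 1 RPKM, other filters, cutoffs of 2-fold and 4-fold, the mean over transcripts and the trend.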

Additional observations from a re-analysis of the deposited data

Results flagged for a closer look

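For 4 class I genes the same contrast pointed in opposite directions in different populations or at different days, with the 2 counting intervals on opposite sides of 0. Contrasts that differed in sign with an interval that held 0 were not flagged. With 1 library per condition the difference was not tested. The log2 ratio of *Tap2* in Ad-Cre over Ad-GFP cells was -0.25 at day 0 and 1.00 at day 2. That of *Psmb10* was -0.49 at day 0 and 1.04 at day 2. *Nlrc5* went the other way, with 0.83 at day 0 and -0.97 at day 2, on 16 reads in the Ad-Cre day 2 library. *Psmb9* changed from day 0 to day 2 by -1.42 on the log2 scale with Ad-GFP and by 1.22 with Ad-Cre, on 10 to 54 reads per library. All 4 contrasts rest on the Ad-Cre day 2 library, and after division by its trend over length and GC the day 2 ratio was 0.72 for *Tap2* and 0.41 for *Psmb10*, and the Ad-Cre ratio of *Psmb9* was 0.26.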

How the results depend on the processing

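No paired analysis was possible because each condition had 1 library, and no library could be left out. Of the counts past the cutoff and medians recomputed under the alternatives, 68 stayed close, 12 moved and 1 reversed, and the 12 subunit ratios of the immunoproteasome stayed the same with the mean over transcripts. The fall in Ad-GFP cells counted 3 members with a pseudocount of 1 RPKM, 3 with the interval past 2.5-fold and 1 (*Psmb8*) at 4-fold. In Ad-Cre cells the count of 0 became 1 with the sum of counts as denominator, 1 at 2-fold (both *Psmb9*, higher) and 1 after division by the trend (*B2m*, lower), and that division turned the median to -0.31. At day 2, the median of Ad-Cre over Ad-GFP was 1.21 with the sum of counts, 1.26 with TMM factors and 0.72 after the division, and 7 members passed at 2-fold. The median difference of the changes was 1.06 with TMM factors and 0.60 after the division. Between the denominators the median of all expressed genes moved from -0.01 to 0.17 in Ad-Cre cells and from -0.16 to -0.03 at day 2, and with TMM factors to 0.02 at day 2. Of the single-gene ratios 158 stayed within their counting interval and 38 moved out of it. Among them 5 turned sign, 0 of these past 2.5-fold as deposited. In Ad-Cre cells by day 2, division by the trend took *H2-K1* from 0.37 to -0.10, *Tap2* from 0.15 to -0.09 and *Psmb10* from 0.02 to -0.63, and the sum of counts took *Psmb8* from -0.13 to 0.05. In Ad-GFP cells TMM factors took *H2-K1* from 0.04 to -0.06. Depth limits *Psmb8*, *Psmb9* and *Nlrc5* the most.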
